A study of Mus musculus with 4 samples.

Results

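The inhibitors of DNA binding Id1, Id2 and Id3 and the E protein genes Tcf3 and Tcf12 were followed in mouse splenic MHCII+ antigen presenting cells. They were taken by gene symbol, and 5 of 5 were found among the 17519 genes of the deposited table. The family was selected on the measured difference between PSA day 1 and day 0, in which Id3 stood among the genes that the authors' deposited table calls higher. The members' own day 1 and day 0 values are therefore given as a description, with no test.

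The study set 3 PSA day 1 libraries against 1 day 0 library. PSA day 1 cells had been stimulated with PSA, polysaccharide A, a capsular sugar of the gut bacterium Bacteroides fragilis, at 50 µg/ml over 24 h in Advanced RPMI1640 medium with fetal bovine serum. Day 0 cells were freshly isolated and had no PSA. Both groups came from adult C57Bl.6 spleen, and no mutation or transgene is named for either. A 24 h culture without PSA was not analysed here, so PSA, time and culture cannot be told apart. The labels do not say whether separate mice or cultures gave the 3 PSA libraries, so their spread, and p-values that rest on it, may be technical.

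Id and E proteins belong to the helix-loop-helix family. E proteins have a basic region next to the helices, pair with themselves or with partners, and bind the E-box, a short DNA motif written CANNTG. Id proteins have the helices without the basic region, so an E protein held by an Id protein does not bind DNA. In the B lineage Tcf3 is required for commitment, Id3 is a known early response gene of antigen receptor and BMP signalling, Tcf4 directs plasmacytoid dendritic cells, and Id2 is required for NK cells, innate lymphoid cells and cross-presenting dendritic cells.

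Values are FPKM, fragments per kilobase of transcript, scaled to the mapped fragments of the library, and can be compared between genes because they are per length. The label of the cells held: the 5 MHC class II genes (H2-Aa, H2-Ab1, H2-Eb1, Cd74 and Ciita) summed to 15247 to 19025 FPKM in PSA day 1 libraries and to 10515 FPKM at day 0. The libraries differed widely in depth. From the steps between low FPKM values, PSA day 1 libraries held about 2990000, 3360000 and 4600000 fragments in replicates 1 to 3, and the day 0 library held about 213000. In the day 0 library 7378 genes were listed at 0, against 2073 to 2663 genes in the PSA day 1 libraries. Protein-coding genes made up 80.2 to 83.4% of summed FPKM in PSA day 1 libraries and 11.5% at day 0. Some genes were very high in the day 0 library and almost absent from the PSA day 1 libraries. Pou1f1 had 973 FPKM at day 0 and 0, 0.019 and 0 FPKM in PSA day 1 libraries. Slc1a3 had 1210 FPKM at day 0 and 0.253, 0 and 0 FPKM in PSA day 1 libraries. Whether such high day 0 values are RNA of these cells was not tested, and this holds for Pax5 and Tcf4 below. Because the day 0 group is 1 shallow library, the day 0 levels of the members carry a 95% exact Poisson interval, worked out from the estimated fragments and the longest coding transcript, which covers counting error only. Ratios of some other genes are given with this counting interval where day 0 held few fragments. Irf7, Smad1, Klk1, Sox4, Eomes, Cadm1 and Klrb1c are given by log2 change without it. Their day 0 values rested on an estimated 3.32 (Irf7) to 9.02 (Klrb1c) fragments. For some members the shortest coding transcript gives fewer day 0 fragments: an estimated 7.16 for Tcf3, 2.30 for Id2 and 0.511 for Tcf12. Their intervals would then be wider, and were not worked out. For Id3 both lengths are 1278 nt.

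Id3 was the most abundant member at day 1 and had the largest day 1 to day 0 ratio among the members above 0 at day 0. Id3 (ENSMUSG00000007872, GRCm38 chromosome 4, 136143497 to 136145755, plus strand) had 360, 341 and 292 FPKM in PSA day 1 replicates 1, 2 and 3, against 26.1 FPKM at day 0. Each PSA library stood above the upper end of the day 0 interval, which ran from 10.6 to 53.5 FPKM and rested on an estimated 7.12 fragments. At the PSA day 1 level, a library as shallow as day 0 would hold 90.3 Id3 fragments. The PSA day 1 mean was 331 ± 35.1 FPKM (SD, n = 3) and was 12.7 times the day 0 level, or 6.19 to 31.3 times over the counting interval of day 0. Ranked by FPKM among protein-coding genes, Id3 was 186th, 185th and 195th in the PSA day 1 libraries and 2261st at day 0. In these bulk samples a change in the share of cells that hold a transcript and a change in RNA per cell cannot be told apart.

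**Figure D1:**
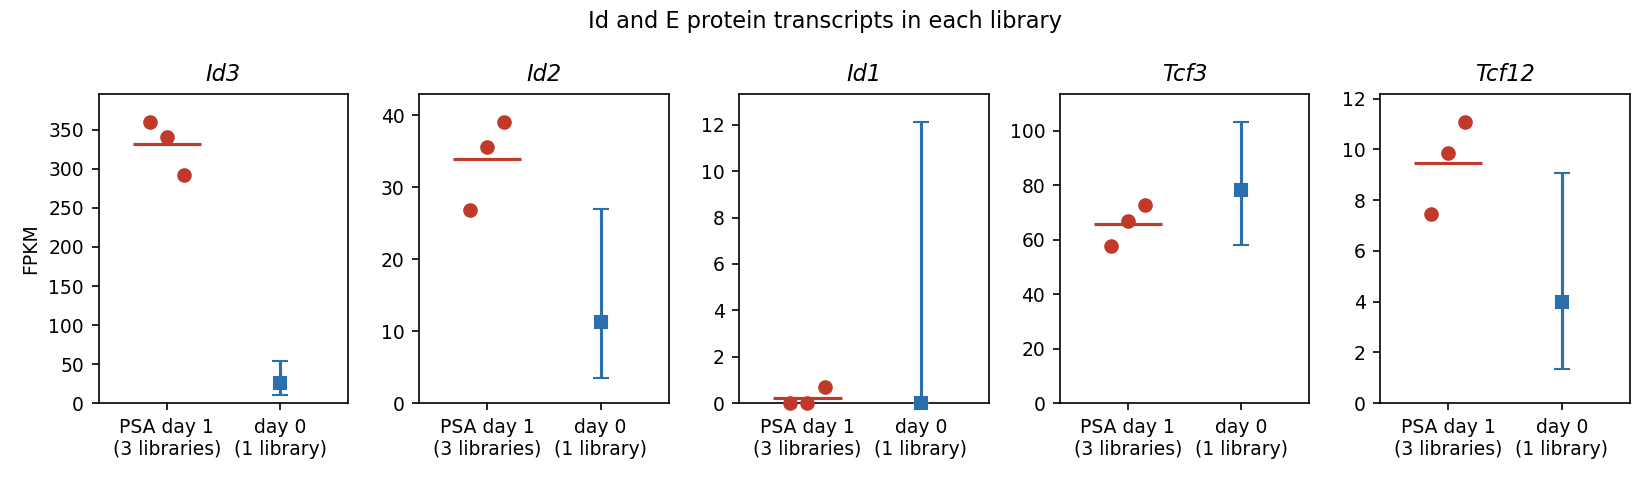
FPKM of the 5 members in each library (linear axes from 0, a separate scale for each gene). Red points are the 3 PSA day 1 libraries with their mean as a line, and the blue square is the day 0 library with its 95% exact Poisson counting interval (for Id1, at 0 at day 0, the 12.1 FPKM that a count of 0 allows): the Id3 points lie at 292 to 360 FPKM above an interval that ends at 53.5 FPKM, while the Tcf3 points lie within the day 0 interval or just under its lower end.

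Id2 had a smaller ratio, and its day 0 value rested on few fragments. Id2 (ENSMUSG00000020644, chromosome 12, 25093799 to 25097140, minus strand) had 26.9, 35.6 and 39.1 FPKM in PSA day 1 replicates 1, 2 and 3, against 11.3 FPKM at day 0. All 3 PSA day 1 values were above the day 0 value, but the day 0 interval of 3.51 to 26.9 FPKM reached the lowest of them. The PSA day 1 mean of 33.8 ± 6.29 FPKM (SD, n = 3) was 3.00 times the day 0 level, or 1.26 to 9.63 times over the counting interval. Id1 (ENSMUSG00000042745, chromosome 2, 152736251 to 152737410, plus strand) was listed at 0 in PSA day 1 replicates 1 and 2, at 0.708 FPKM in replicate 3, and at 0 at day 0. That value is an estimated 3.78 fragments. A day 0 count of 0 allows up to 12.1 FPKM of Id1, taken as 3 fragments, so a difference in Id1 was not detectable at this depth. Id4, the other gene of the family, was not analysed here.

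The E protein gene Tcf3 differed little from day 0. Tcf3 (ENSMUSG00000020167, chromosome 10, 80409514 to 80433647, minus strand) had 57.5, 66.9 and 72.6 FPKM in PSA day 1 replicates 1, 2 and 3, against 78.2 FPKM at day 0. The PSA day 1 values were all under the day 0 value. Replicates 2 and 3 fell within its counting interval of 57.9 to 103 FPKM, and replicate 1 lay just under the lower end. The PSA day 1 mean of 65.7 ± 7.61 FPKM (SD, n = 3) was 0.840 times the day 0 level, or 0.636 to 1.13 times over that interval. Tcf12 encodes the E protein called HEB, which works beside Tcf3 products in lymphocyte development. Tcf12 (ENSMUSG00000032228, chromosome 9, 71842688 to 72111871, minus strand) had 7.44, 9.85 and 11.1 FPKM in PSA day 1 replicates 1, 2 and 3, against 3.997 FPKM at day 0. The day 0 interval of 1.36 to 9.07 FPKM, from an estimated 5.36 fragments, took in the lowest PSA day 1 library. The Tcf12 mean at PSA day 1 was 9.46 ± 1.86 FPKM (SD, n = 3), or 2.37 times day 0, and 1.04 to 6.94 times over the interval.

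At PSA day 1 the order of levels was Id3, Tcf3, Id2, Tcf12 and Id1, and the ranges of neighbours in this order did not overlap between libraries. At day 0 the order was Tcf3, Id3, Id2, Tcf12 and Id1. On the longest coding transcripts, the day 0 intervals of Tcf3 and Id3 did not overlap, whereas those of Id3 and Id2, and of Id2 and Tcf12, did. With 49.2 estimated Tcf3 fragments on the longest and 7.16 on the shortest coding transcript, the lack of overlap depends on that choice of length. In order of FPKM, Id3 and Tcf3 changed places between the PSA day 1 libraries and the day 0 library. Among the 3 PSA day 1 libraries the coefficient of variation was 10.6% for Id3, 11.6% for Tcf3, 18.6% for Id2 and 19.6% for Tcf12.

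Ratios within a library do not depend on the total by which its FPKM values were scaled. The ratio of Id3 to Tcf3 FPKM was 6.27, 5.10 and 4.03 in PSA day 1 replicates 1, 2 and 3, and 0.334 at day 0. The lowest PSA day 1 ratio was 12.1 times the day 0 ratio, and the mean of 5.13 ± 1.12 (SD, n = 3) was 15.4 times it. Day 0 ratios carry no counting interval, and rest on an estimated 7.12 fragments of Id3, 4.73 of Id2 and 5.36 of Tcf12. Summed Id1, Id2 and Id3 stood at 387, 377 and 332 FPKM in PSA day 1 libraries and at 37.4 FPKM at day 0. Tcf3 and Tcf12 together stood at 65.0, 76.8 and 83.7 FPKM in PSA day 1 libraries, on either side of the 82.2 FPKM of day 0. The ratio of summed Id to summed Tcf3 and Tcf12 FPKM was 5.96, 4.91 and 3.97 in the PSA day 1 libraries and 0.455 at day 0. Id3 made up 88.0 to 93.1% of summed Id FPKM at PSA day 1 and 69.9% at day 0. The ratio of Id2 to Tcf12 was 3.61, 3.61 and 3.52 in PSA day 1 libraries and 2.82 at day 0, so these members kept a near-constant ratio across the 3 PSA libraries while their levels spread. These are levels of transcripts, and protein was not measured.

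**Figure D2:**
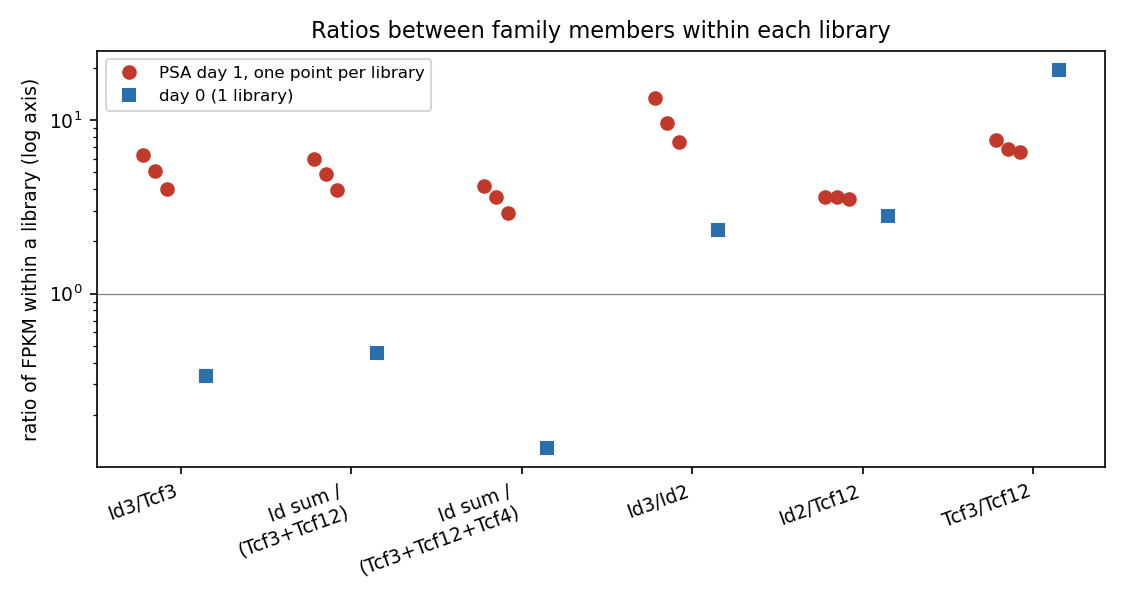
Ratios of FPKM between members within each library, on a log axis. Red circles are the 3 PSA day 1 libraries and blue squares the day 0 library: Id3 to Tcf3 lies at 4.03 to 6.27 in PSA day 1 libraries and at 0.334 at day 0, while Id2 to Tcf12 lies close together in the 3 PSA day 1 libraries. Day 0 ratios carry no counting interval and rest on few fragments of Id3, Id2 and Tcf12.

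The E protein gene left out of those sums, Tcf4, had the opposite difference. Tcf4 had 28.2, 27.9 and 29.5 FPKM in PSA day 1 replicates 1, 2 and 3, against 208 FPKM at day 0, an estimated 381 fragments. The 3 PSA day 1 values averaged 28.5 ± 0.834 FPKM (SD, n = 3), and day 0 was 7.30 times their mean. With limma on log2(FPKM + 1), Tcf4 fell by 2.83 on the log2 scale (SE 0.10, Benjamini-Hochberg adjusted p = 0.0029). The authors' deposited table gives a log2 fold change of -0.93 for Tcf4 and does not call it. Tcf4 made up 26.0 to 30.2% of summed Tcf3, Tcf12 and Tcf4 FPKM at PSA day 1 and 71.7% at day 0. With Tcf4 counted, the ratio of summed Id to summed E protein FPKM was 4.16, 3.60 and 2.94 at PSA day 1 and 0.129 at day 0.

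Across the table, limma called 4869 of 13903 genes higher at PSA day 1, or 35.0%, and 2640 lower, or 19.0%, at an adjusted p under 0.05. Without PSA replicate 2 the counts were 2549 higher and 1393 lower, and with the median log2 change of 0.59 set to 0 they were 3034 higher and 3895 lower. With genes at 0 at day 0 left out, 2834 of 10028 genes were higher and 2719 lower. The 6 gene lists linked to Id and E proteins below hold 0 to 2 tested genes at 0 at day 0 each. The 35.0% and 19.0% set beside those lists thus come from a set that is unlike them in this respect. This limma fit takes the lone day 0 library to vary like the PSA libraries. Of the 4 members that reached 1 FPKM in a library, 3 were among the higher calls (Id2, Id3 and Tcf12), and Tcf3 was not called. Nothing is read from that count, since the members were selected on this contrast. In the authors' deposited table, with a false discovery rate under 0.05, 49 of 17519 genes are called higher, or 0.280%, and 443 lower, or 2.53%. There 1 of the 5 members, Id3, is called higher, with a log2 fold change of 2.94 and a false discovery rate of 8.76e-05, and 0 are called lower.

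The deposited folds and the FPKM values gave different pictures of the other members. The authors' deposited table gives log2 fold changes of 0.13 for Id2, -0.23 for Tcf3 and 0.058 for Tcf12. The log2 ratios of mean FPKM at PSA day 1 over day 0 were 3.66 for Id3, 1.59 for Id2, -0.25 for Tcf3 and 1.24 for Tcf12. The FPKM ratio thus exceeded the deposited value by 0.72 for Id3 and by 1.45 for Id2, on the log2 scale, while the difference for Tcf3 was small. Over 8514 genes above 0 at day 0 with at least 5 FPKM in a library, the median of the same gap was 0.26 (quartiles -0.60 to 0.96). Among the 181 of these genes whose FPKM ratio was 8 or more, the authors' deposited table gives a median log2 fold change of 0.66, and 7 reached 2.

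**Figure D3:**
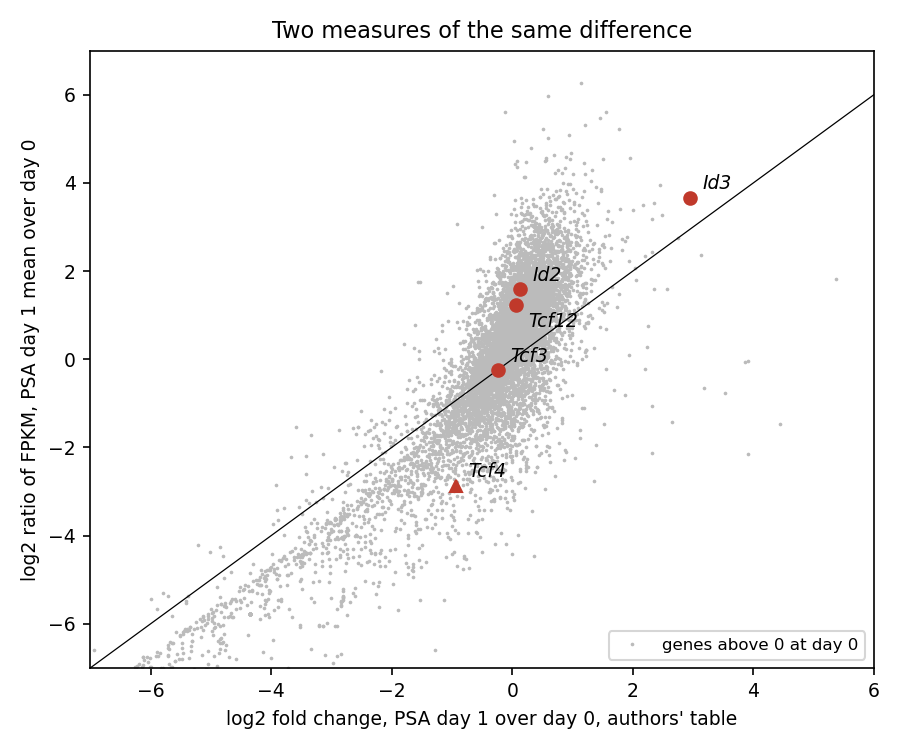
The log2 ratio of mean FPKM, PSA day 1 over day 0, against the log2 fold change of the authors' deposited table. Grey points are the 8514 genes above 0 at day 0 with at least 5 FPKM in a library, the line marks equal values, and labelled red marks are Id and E protein genes: Id3 is high on both axes, while Id2 and Tcf12 are near 0 on the horizontal axis and above it on the vertical axis.

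Within the PSA day 1 group, Id3 ran against the other members. The FPKM ratio of replicate 3 to replicate 1 was 0.811 for Id3, against 1.45 for Id2, 1.26 for Tcf3 and 1.49 for Tcf12. The same contrast moved with transcript length across 7170 protein-coding genes with a mean of at least 5 FPKM. Of 4 equal groups by length, the shortest, 102 to 1820 nt, had the fewest genes higher in replicate 3, 26.6%, and the longest, 4253 to 123179 nt, the most, 76.3%. In the shortest group the median log2 ratio of replicate 3 over replicate 1 was -0.22, and in the longest group it was 0.23. Id3, with a longest coding transcript of 1278 nt, is in the shortest group, and its log2 ratio was -0.30. Id2 (1969 nt) had 0.54, Tcf3 (2950 nt) had 0.34 and Tcf12 (6299 nt) had 0.58, all above the medians of their groups, which were 0.042, 0.16 and 0.23. The day 1 minus day 0 difference also moved with length: the group medians on the log2(FPKM + 1) scale were 0.77, 0.83, 0.59 and -0.017 from shortest to longest. The members' own differences on that scale were 3.61 for Id3, 1.49 for Id2, -0.25 for Tcf3 and 1.05 for Tcf12. The part of length in the members' values was not tested.

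**Figure D4:**
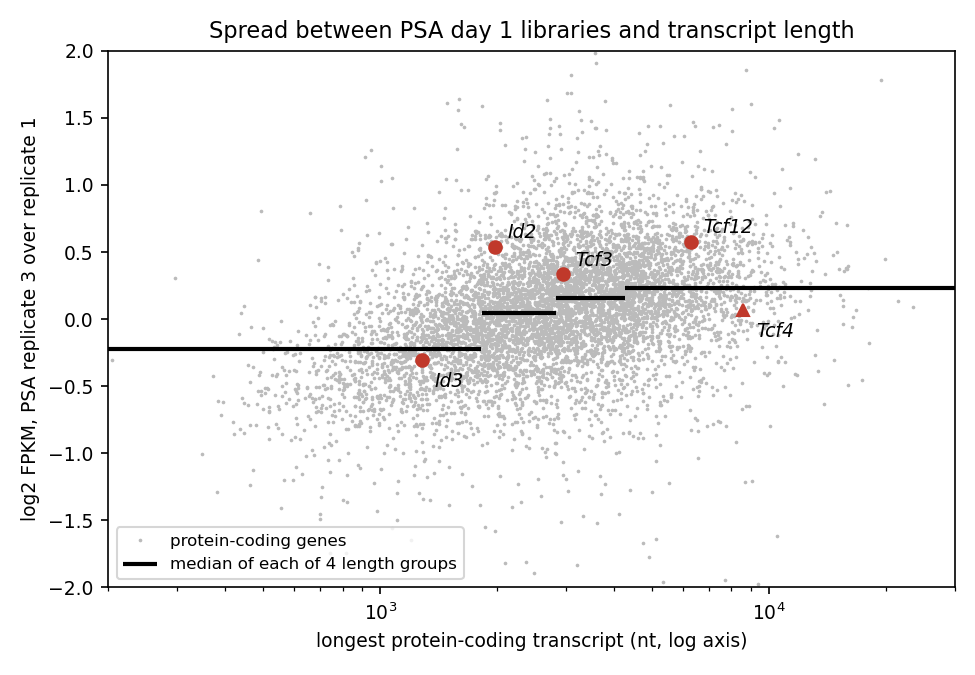
Log2 ratio of FPKM in PSA day 1 replicate 3 over replicate 1 against the longest protein-coding transcript (nt, log axis). Grey points are protein-coding genes with a mean of at least 5 FPKM, black bars the median of each of the 4 length groups, and red marks Id and E protein genes: Id3 lies at -0.30 beside a group median of -0.22, and Id2, Tcf3 and Tcf12 lie above 0.

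The promoter windows of Id3, Id2 and Tcf3 are shown because E proteins bind the E-box and because these genes carry the ratios above. Each is 250 bases before to 50 after a transcription start in RefSeq on GRCm38.p6, 5′ to 3′ on the gene's strand, and capitals mark CANNTG. Of the 5 members, 4 had such a window.
Id3 (chr4:136143572-136143871, plus strand): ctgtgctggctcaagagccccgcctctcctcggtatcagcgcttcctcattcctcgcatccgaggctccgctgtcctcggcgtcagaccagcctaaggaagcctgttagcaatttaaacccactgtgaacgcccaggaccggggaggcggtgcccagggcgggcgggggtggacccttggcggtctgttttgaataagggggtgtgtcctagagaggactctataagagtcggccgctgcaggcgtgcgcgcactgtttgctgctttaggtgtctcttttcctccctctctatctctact
Id2 (chr12:25096043-25096342, minus strand): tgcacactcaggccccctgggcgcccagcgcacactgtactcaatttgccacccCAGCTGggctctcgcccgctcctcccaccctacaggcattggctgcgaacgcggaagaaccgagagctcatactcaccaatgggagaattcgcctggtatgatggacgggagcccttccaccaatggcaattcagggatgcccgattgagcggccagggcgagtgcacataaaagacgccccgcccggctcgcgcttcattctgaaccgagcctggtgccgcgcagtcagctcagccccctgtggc
Tcf3 (chr10:80433586-80433885, minus strand): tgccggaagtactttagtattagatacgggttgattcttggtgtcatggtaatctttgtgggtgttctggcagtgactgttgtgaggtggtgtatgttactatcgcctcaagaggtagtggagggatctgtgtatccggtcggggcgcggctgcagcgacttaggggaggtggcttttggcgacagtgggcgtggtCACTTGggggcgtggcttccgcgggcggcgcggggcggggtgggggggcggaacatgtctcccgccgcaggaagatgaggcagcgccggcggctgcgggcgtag
The Id3 window held 0 matches to CANNTG on either strand. The Id2 window held 1, CAGCTG, whose first base is at position -196 from the start, and the Tcf3 window held 1, CACTTG, at -54. Of 32851 windows, 72.3% held CANNTG, a motif that equals its own reverse complement in form. The 3 windows of Tcf12 held 1, 2 and 1 matches. CAGGTG, a form of the E-box that E proteins bind well, was in none of the members' windows and in 20.2% of all windows, counting both strands. GGCGCC, a core of the sites that BMP-responsive SMAD proteins bind in Id genes, was in the Id2 window at position -231 and in 11.9% of all windows. GCGNGGGCG, the motif of early growth response factors, was in none of the members' windows and in 5.55% of all, and TATAAA was in none and in 13.6% of all. GC content was 60.0% in the Id3 window, 63.3% in the Id2 window and 61.7% in the Tcf3 window, with a median of 52.7% over all windows.

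Reads down to 10 nt were kept, so stretches that members share could take reads of each other. The longest run common to coding transcripts of Tcf3 and Tcf12 in GENCODE M21 was 18 nt and lay in the coding part of both.
Tcf3 and Tcf12 common run: aaccccaaagcagcctgc
Id2 and Id3 shared at most 19 nt, Id1 and Id3 12 nt, and Tcf12 and Tcf4 47 nt. Tcf3 and Tcf4 shared 23 nt in the coding part of both, and Id2 and Tcf4 shared 20 nt. How reads that match several genes were counted is not given in the sources used here.

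By Euclidean distance between centred log2(FPKM + 1) values over the 4 libraries, among 10069 genes with at least 5 FPKM in a library, the genes nearest to Id3 were Polr2l, Tmem42 and Arl5c. Arl5c, at a distance of 0.120, had 88.4, 81.7 and 77.9 FPKM in PSA day 1 libraries and 6.05 FPKM at day 0. The nearest to Tcf3 was Fcer2a, which encodes the IgE receptor CD23 of follicular B cells, at a distance of 0.0137. Fcer2a had 132, 155 and 168 FPKM in PSA day 1 libraries and 180 FPKM at day 0, the order seen for Tcf3. Prmt5 and Tbc1d20 came next for Tcf3. Nearest to Id2 were Rgs1, Arhgef3 and Suv39h1, and nearest to Tcf12 were Helb, Golga2 and Mlx. For Id1, nearly flat at 0, the nearest were H2-Q5, Cltc and Lsm5. With 4 libraries, of which 3 are of 1 group, this is a description of pattern.

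Other genes of the Id and E protein network were taken from lists of 22 helix-loop-helix partners and cofactors, 31 BMP, TGF-beta and SMAD genes, and 4 groups of genes known to depend on these factors. Of the 53 called genes of these lists that have a day 0 counting interval, 6 have an interval of the ratio that includes 1 (Smurf1, Bcl6, Bst2, Pacsin1, Cox6a2 and Clec9a). Of the 22 partners and cofactors, 12 were in the table and 10 were tested. Of those, 2 rose (Lyl1 and Ldb1), 6 were called lower and 2 were not called. The lower calls were Tcf4, Ebf1, Runx1t1, Cbfa2t2, Cbfa2t3 and Lmo4. The median log2 change was -1.35 beside 0.59 over all genes tested. The shares were 20% higher and 60% lower, beside 35.0% and 19.0% over all genes tested. Runx1t1 reached 1 FPKM in the day 0 library only, on an estimated 1.66 fragments. Only a lower call was open to it, and no fall is read from that call. Ldb1, which bridges E protein and LIM complexes, had 179, 180 and 204 FPKM in PSA day 1 libraries and 35.3 FPKM at day 0 (log2 change 2.38, SE 0.13, limma adjusted p = 0.0038). Lmo4, a LIM-only protein that binds Ldb1, had 23.9, 28.2 and 23.7 FPKM in PSA day 1 libraries and 79.5 FPKM at day 0 (log2 change -1.62, limma adjusted p = 0.0072). Cbfa2t3, an ETO family corepressor that binds E proteins, had 7.92, 5.25 and 6.10 FPKM in PSA day 1 libraries and 25.6 FPKM at day 0 (log2 change -1.85, limma adjusted p = 0.0137), a call that was lost without replicate 3. Without PSA replicate 2, 1 of the 10 was higher, and without replicate 3, 3 were lower. The authors' deposited table calls 0 of the 12 in either direction.

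Among BMP, TGF-beta and SMAD genes, which act upstream of Id genes, 19 of 28 in the table were tested. Of these, 5 rose (Smad4, Smad5, Smurf1, Tgfb1 and Tgfb3), 8 were called lower and 6 were not called. The shares were 26.3% higher and 42.1% lower, and the median log2 change was -0.23. Among the lower calls, Bmpr2, Acvr1, Acvr2a and Acvr2b reached 1 FPKM in the day 0 library only. Their day 0 values rested on an estimated 1.37 (Acvr1) to 3.97 (Acvr2a) fragments. Only a lower call was open to them, and no fall is read from those calls. The Smurf1 ratio of 2.01 had a counting interval of 0.691 to 9.70. The authors' deposited table calls 1 higher, Tgfb3, and 1 lower, Bambi. Tgfb3, a TGF-beta ligand, had 13.4, 14.8 and 14.6 FPKM in PSA day 1 libraries and 2.77 FPKM at day 0, a ratio of 5.17 with a counting interval of 1.43 to 42.9. Smad5, which carries BMP signals, had 6.38, 6.06 and 7.10 FPKM in PSA day 1 libraries and 1.02 FPKM at day 0, a ratio of 6.35 with a counting interval of 1.45 to 96.6. Smad1, which has the same role, had 1.17, 0.661 and 1.35 FPKM in PSA day 1 libraries and 5.43 FPKM at day 0 (log2 change -1.66, limma adjusted p = 0.0196), and its call was lost without replicate 1 or without replicate 3. Smad2, which carries TGF-beta signals, had 10.3, 12.1 and 16.1 FPKM in PSA day 1 libraries and 45.5 FPKM at day 0 (log2 change -1.77, limma adjusted p = 0.0186), a call lost without replicate 2. Of this list 2 to 4 genes were higher and 3 to 5 lower when PSA replicates were left out in turn, with 3 lower both without replicate 1 and without replicate 2. The BMP-linked Smad5 and Smad1 had differences of opposite sign.

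E protein target genes of B cells were called at shares near those over all genes tested, 33.3% higher beside 35.0% and 22.2% lower beside 19.0%. Of 18 tested, 6 were called higher, among them Cd79a, Cd79b, Blnk, Blk and Cdkn1a. Ebf1, Pax5, Foxo1 and Bach2 were the 4 that fell, and 8 were not called. The median log2 change was 0.40. As background, Blnk is an adaptor and Blk a kinase of B cell receptor signalling, and Ebf1, Foxo1 and Bach2 are transcription factors. Irf4, Lef1, Pou2af1 and Ets1, transcription factors or cofactors of the same list, were not called. Pax5, the factor that holds B cell identity, had 161, 158 and 165 FPKM in PSA day 1 libraries and 2118 FPKM at day 0 (log2 change -3.71, SE 0.11, limma adjusted p = 0.0029). Cd79a, a signalling chain of the B cell receptor, had 1049, 934 and 704 FPKM in PSA day 1 libraries and 287 FPKM at day 0 (log2 change 1.62, limma adjusted p = 0.0222), a call lost without replicate 1 or 2. Cdkn1a, a cell cycle inhibitor that E proteins activate, had 10.5, 10.0 and 9.63 FPKM in PSA day 1 libraries and was listed at 0 in the day 0 library. At that depth a 0 does not show absence, since 3 fragments on a 2 kb transcript are 7.04 FPKM. No rise is read from the limma call of Cdkn1a. Without PSA replicate 2, 3 of the 18 were higher and 1 lower, and without replicate 3, 2 were lower. The authors' deposited table calls Cdkn1a higher, at 2.02 on the log2 scale, and Pax5 lower, at -3.34. B cell markers summed to 3457 to 4062 FPKM in PSA day 1 libraries and 3672 FPKM at day 0, and 5 of 10 rose (50%) while 3 fell (30%). Without Pax5 the B cell markers summed to 3293 to 3900 FPKM in PSA day 1 libraries and 1554 FPKM at day 0.

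Id3 and E proteins also bear on the choice between marginal zone and follicular B cells. Of 14 genes of that choice, 4 rose (S1pr1, Cd9, Cxcr5 and Bcl6), 5 fell (Dtx1, Hes1, Cr2, Klf2 and Sox4) and 5 were not called, or 28.6% higher and 35.7% lower, with a median log2 change of -0.19. The Bcl6 ratio of 2.45 had a counting interval of 0.955 to 9.08. Hes1, a Notch target, had 4.98, 5.88 and 6.90 FPKM in PSA day 1 libraries and 149 FPKM at day 0 (log2 change -4.45, SE 0.21, limma adjusted p = 0.0034). Cr2, the complement receptor CD21 that is high on marginal zone B cells, had 13.7, 13.2 and 12.6 FPKM in PSA day 1 libraries and 46.6 FPKM at day 0 (log2 change -1.75, limma adjusted p = 0.0044). Cd9, a tetraspanin of marginal zone B cells, had 33.7, 42.4 and 43.7 FPKM in PSA day 1 libraries and 7.79 FPKM at day 0, a ratio of 5.12 with a counting interval of 1.43 to 41.1. Sox4, a factor of early B cells, had 1.06, 1.42 and 1.89 FPKM in PSA day 1 libraries and 5.69 FPKM at day 0 (log2 change -1.46, limma adjusted p = 0.0227), a call lost without replicate 2. Without PSA replicate 2, 1 of the 14 was higher and 2 were lower. The authors' deposited table calls 3 of the 14 lower, Hes1, Cr2 and S1pr3, and 0 higher.

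**Figure D5:**
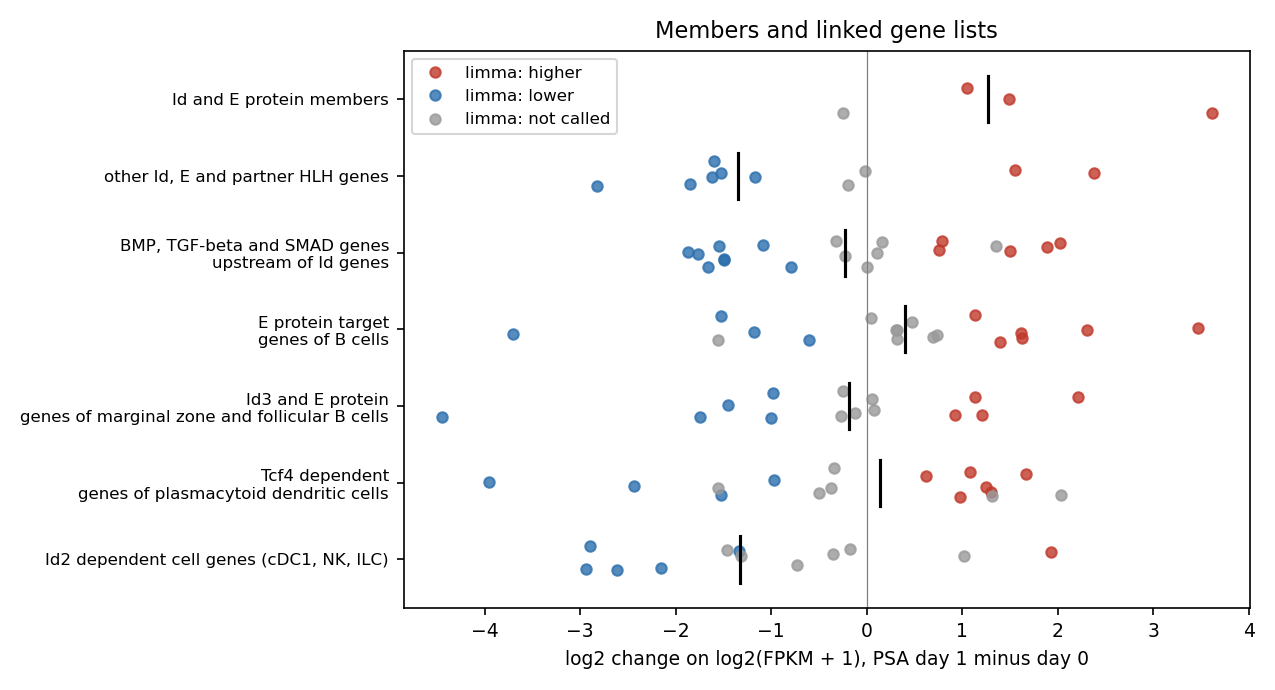
Log2 change on log2(FPKM + 1), PSA day 1 minus day 0, for the tested genes of 6 lists linked to Id and E proteins, under the 4 tested members in the top row, which were selected on this contrast. Each point is a gene: red for a higher and blue for a lower limma call, grey for not called. Black bars are list medians. Each of the 6 lists holds genes on both sides of 0. The medians of the partner list (-1.35) and of the Id2 dependent list (-1.33) are the lowest. A gene that reached 1 FPKM at day 0 only can lie only below 0.

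Genes that depend on Tcf4 in plasmacytoid dendritic cells were called at shares of 37.5% higher and 25% lower, beside 35.0% and 19.0% over all genes tested. Of 16 tested, 6 rose (Bst2, Irf7, Irf8, Spib, Pacsin1 and Ly6d), 4 were called lower and 6 were not called. The lower calls were Siglech, Runx2, Cox6a2 and Klk1, and the median log2 change was 0.14. Runx2 reached 1 FPKM in the day 0 library only, on an estimated 4.66 fragments. Only a lower call was open to it, and no fall is read from that call. The counting intervals of the ratio for Bst2 (0.689 to 4.54), Pacsin1 (0.954 to 6.09) and Cox6a2 (0.139 to 3.46) include 1. Siglech, a surface lectin that defines these cells, had 10.8, 16.2 and 13.6 FPKM in PSA day 1 libraries and 222 FPKM at day 0 (log2 change -3.96, SE 0.26, limma adjusted p = 0.0045). Klk1, a kallikrein protease, had 3.14, 3.97 and 2.77 FPKM in PSA day 1 libraries and 22.2 FPKM at day 0 (log2 change -2.44, limma adjusted p = 0.0066). Spib, an ETS factor shared with B cells, had 144, 145 and 148 FPKM in PSA day 1 libraries and 58.8 FPKM at day 0 (log2 change 1.30, limma adjusted p = 0.0050). Irf7, a regulator of interferon genes, had 26.9, 17.3 and 30.96 FPKM in PSA day 1 libraries and 6.97 FPKM at day 0 (log2 change 1.67, limma adjusted p = 0.0395), and its call was lost without replicate 1 or without replicate 3. Without PSA replicate 2, 2 of the 16 were higher and 2 lower, without replicate 3, 2 were lower, and with the median change set to 0, 1 was higher and 7 lower. The authors' deposited table calls 2 of the 16 lower, Siglech and Klk1, and 0 higher. Markers of plasmacytoid dendritic cells, Tcf4 among them, summed to 1064 to 1224 FPKM in PSA day 1 libraries and 971 FPKM at day 0, with 3 of 8 higher (37.5%) and 4 lower (50%). Ly6d carried that sum, and without it the markers summed to 243 to 252 FPKM in PSA day 1 libraries and 543 FPKM at day 0. Their part in the Tcf4 difference was not tested.

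Among genes of the cells that need Id2, 8.33% were higher and 41.7% lower, beside 35.0% and 19.0% over all genes tested. Of 12 tested of 17, 1 was called higher (Nfil3), 5 were called lower and 6 were not called, with a median log2 change of -1.33. The lower calls were Xcr1, Clec9a, Cadm1, Eomes and Klrb1c. Of these, Xcr1, Cadm1 and Eomes reached 1 FPKM in the day 0 library only. Only a lower call was open to them in this fit, and no fall is read from those calls. Nfil3 was listed at 0 at day 0, which at that depth does not show absence. The authors' deposited table gives it a log2 fold change of -0.92, so no rise is read from that call. Klrb1c, the NK receptor NK1.1, had 1.52, 1.01 and 1.21 FPKM in PSA day 1 libraries and 16.1 FPKM at day 0 (log2 change -2.94, limma adjusted p = 0.0046). Eomes, a factor of NK cells, had 0.094, 0.308 and 0.476 FPKM in PSA day 1 libraries and 8.56 FPKM at day 0 (log2 change -2.90, limma adjusted p = 0.0060). Cadm1, an adhesion molecule of cross-presenting dendritic cells, had 0.563, 0.487 and 0.522 FPKM in PSA day 1 libraries and 8.35 FPKM at day 0 (log2 change -2.62, limma adjusted p = 0.0040). Clec9a, a receptor for dead cells on the same dendritic cells, had 1.65, 1.46 and 1.58 FPKM in PSA day 1 libraries and 5.48 FPKM at day 0 (log2 change -1.34, limma adjusted p = 0.0095). Its ratio of 0.285 had a counting interval of 0.109 to 1.08, which includes no difference. The authors' deposited table calls 4 of the 17 lower, Xcr1, Cadm1, Eomes and Klrb1c, and 0 higher.

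Calls among markers of other cell types are given beside 35.0% higher and 19.0% lower over all genes tested. Among the called markers, the counting interval of the ratio includes 1 for Adgre1, Cd68, Marco, Flt3, Clec9a, Cd209a, Itgax, Cd4 and Gzma. C1qa, Vcam1, Cd5l, Ccr2, Xcr1 and Eomes reached 1 FPKM in the day 0 library only, so only a lower call was open to them. No rise or fall is read from the calls of either set. Macrophage and monocyte markers summed to 122 to 132 FPKM in PSA day 1 libraries and 149 FPKM at day 0, with 3 of 11 higher (27.3%) and 8 lower (72.7%). Without Lyz2 these markers summed to 44.3 to 52.7 FPKM in PSA day 1 libraries and 119.6 FPKM at day 0. NK cell and innate lymphoid markers summed to 13.1 to 20.8 FPKM in PSA day 1 libraries and 54.2 FPKM at day 0, with 0 of 6 tested higher and 3 lower (50%). Conventional dendritic cell markers summed to 127 to 135 FPKM in PSA day 1 libraries and 67.4 FPKM at day 0, with 2 of 8 tested higher (25%) and 4 lower (50%). Ccr7 carried that sum, and without it the markers summed to 26.1 to 27.5 FPKM in PSA day 1 libraries and 41.3 FPKM at day 0. T cell markers summed to 217 to 241 FPKM in PSA day 1 libraries and 133 FPKM at day 0, with 4 of 9 higher (44.4%) and 1 lower (11.1%). Of those 4, Trac was listed at 0 at day 0. Of 6 neutrophil markers 4 were called higher (66.7%), each listed at 0 at day 0, and 0 were called lower. At the day 0 depth a 0 does not show absence, so no rise is read from these calls. Of 3 erythroid markers tested and 1 stromal and endothelial marker tested, 0 were called. Erythroid markers summed to 2615, 1589 and 1043 FPKM in PSA day 1 replicates 1, 2 and 3 and to 711 FPKM at day 0. Without Hba-a1 they summed to 464 to 1030 FPKM in PSA day 1 libraries and 230 FPKM at day 0. The part of these cell types in the Id and E protein levels was not tested.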

How the data were processed

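RNA of 3 PSA day 1 libraries and 1 day 0 library of splenic MHCII+ cells was sequenced on an Illumina HiSeq, per the labels' protocols. The tools named were Cufflinks 2.2.1 with Cuffdiff, TopHat 1.4.1 and cutadapt, on GRCm38.p6, per the submitters' processing notes. Reads under 10 nt were left out, per the labels' protocols. The annotation release and the handling of strand were not given in the sources used here. The authors deposited FPKM per library, made with Cufflinks per the labels' protocols. The deposited table also holds a log2 fold change and a log2 mean abundance, per the file headers. Its p-value and false discovery rate columns are the authors' too, and the file headers do not name the test.

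Depth was estimated from 1159 single-transcript genes of at least 1000 nt. A fragment was worth an FPKM times kb of 0.334, 0.297 and 0.217 in PSA day 1 replicates 1 to 3 and 4.69 at day 0. Low values lay within 0.1 of a whole fragment in 71.2, 72.8 and 73.6% of cases for PSA day 1 and 65.9% for day 0, where even spacing gives 20%. A floor of 3 fragments on a 2 kb transcript is 0.326 to 0.501 FPKM at PSA day 1 and 7.04 FPKM at day 0. Fragment numbers are estimates, and intervals and floors cover counting error only.

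Genes with at least 1 FPKM in a library (13903) entered a limma fit with trend (limma 3.58.1, R 4.3.3) of log2(FPKM + 1), a scale that understates changes of low genes. P-values were adjusted by Benjamini-Hochberg and called under 0.05, with 2 residual degrees of freedom. The limma procedure was tested on simulated data in which day 0 varied like the PSA libraries. That simulation had no shallow library, so it does not cover the depth of day 0. Alternatives were a pseudocount of 0.1, no filter on low values, the median change set to 0, genes at 0 at day 0 left out, protein-coding genes scaled to the same total, each PSA library left out, and the authors' calls. The members and the gene lists were chosen with earlier results of these data known. Named genes were the members, Tcf4, up to 4 called genes per list with the largest change and at least 5 FPKM in the higher group, and the 3 genes nearest to each member. A gene that this rule names is not reported here. Other genes are named where a count is broken down or as examples of high day 0 values, chosen after their values were seen. Of the gene IDs, 16232 were in GENCODE M21, and Ebf1 and Ciita, which have a second row, were taken by their protein-coding ID.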

Additional observations from a re-analysis of the deposited data

How the results depend on the processing

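Leaving out 1 PSA day 1 library at a time gave 2549 to 4050 genes higher and 1393 to 2122 lower, against 4869 and 2640 with every library, and the fewest came without replicate 2. For calls higher, the same range was 1 to 2 for the partner genes, 2 to 4 for BMP, TGF-beta and SMAD genes, 3 to 6 for B cell targets, 1 to 4 for marginal zone and follicular genes, and 2 to 4 for Tcf4 dependent genes. For calls lower it was 3 to 6, 3 to 5, 1 to 4, 2 to 5 and 2 to 4, in the same order of lists. With the median log2 change of 0.59 set to 0, 3034 genes were higher. The counts higher were then 3 for BMP, TGF-beta and SMAD genes, 1 for marginal zone and follicular genes and 1 for Tcf4 dependent genes, of which 7 were lower. Under that setting the log2 differences were 3.02 for Id3, 0.89 for Id2, -0.85 for Tcf3 and 0.46 for Tcf12, each with the sign of its reported value. With genes at 0 at day 0 left out, 2834 genes were higher, and 0 Id2 dependent genes. A pseudocount of 0.1 and no filter each gave 2 Id2 dependent genes higher. With protein-coding genes at the same total, the Id3 difference was 3.77, and 1 B cell target and 2 Tcf4 dependent genes were lower. The authors' deposited table calls 0 partner genes either way, 1 BMP, TGF-beta and SMAD gene each way, 1 B cell target each way, 0 higher and 3 lower of the marginal zone and follicular genes, 0 higher and 2 lower of the Tcf4 dependent genes, and 0 higher of the Id2 dependent genes. The cause of these shifts was not tested, other than fewer genes or samples where a setting removes them. Of 24 named genes, 18 kept their call under each alternative run, 6 lost it under at least 1, and 0 reversed. With the median change set to 0, Cd79a and Irf7 were no longer called, and Irf7 was not called with no filter on low values either. The log2 difference in the Id3 to Tcf3 ratio, 3.92 with no pseudocount, was 3.86 with a pseudocount of 1 and 3.76 to 4.08 without 1 PSA day 1 library. These alternatives of the ratio, and the marker sums without their leading gene, were chosen after seeing the data. No paired analysis was possible because day 0 has 1 library, so the groups share fewer than 2 replicate numbers. Day 0 depth limits Id1, Id2 and Tcf12 most, with an estimated 0, 4.73 and 5.36 fragments.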
